A study of Rattus norvegicus with 2 samples.

Results

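Predicted non-coding transcripts of the rat were measured by 1702 array probes, 1 for each of 1702 RefSeq accessions that begin with XR_, out of 24684 probes in all (6.90%). They were taken as the probes, control features left out, whose accession carries that prefix in both scanner files. The RNA came from neural stem cells of the hippocampus of Sprague-Dawley rats aged 3 postnatal days, grown without serum in bFGF medium to passage 3. One culture condition was 6 h under 2.4% sevoflurane, an inhaled general anaesthetic, and the other was 6 h under 0% sevoflurane, with both returned to an ordinary incubator for 24 h. Other labels speak only of 6 h, so the time of harvest is uncertain. There was 1 array per condition, so no difference below has a replicate check and none has a p-value, and the sources used here do not say whether an array holds 1 culture or a pool. The study's title names non-coding RNAs and the self-renewal of exposed stem cells, and the comparison asks which of these transcripts differ after the anaesthetic.

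RefSeq gives the prefix XR_ to model RNAs that an annotation program predicts from genomic sequence and aligned transcripts and for which it assigns no protein. Such models can be long non-coding RNAs or transcribed pseudogenes, and later annotation releases often replace or withdraw them. Well-studied long non-coding RNAs of the nervous system act on chromatin, transcription or splicing, but nothing of that kind is known from the files for these members. Of the usable accessions, 0 are listed in the current RefSeq gene table of the rat (GRCr8), so no gene symbol, gene type or position can be given and each member is called by its accession. The files pair no probe with its sequence.

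Transcripts of this set were mostly higher in the sevoflurane sample. Of 1699 members with a usable spot on both arrays, 1076 (63.3%) were well above background on both and are called measured, against 65.2% of all usable probes. Among these 1076, 651 (60.5%) were at least 2-fold higher under sevoflurane and 30 (2.79%) at least 2-fold lower, while 33.1% of all 16047 measured probes were at least 2-fold higher and 11.9% at least 2-fold lower. The median difference, sevoflurane minus control in log2 units after each array was scaled to its 75th percentile, was 1.24 for the predicted non-coding transcripts (quartiles 0.58 and 1.98) and 0.37 for all measured probes. A positive difference was found for 952 members (88.5%), against 62.0% of all measured probes.

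The size of the shift depended on the scaling. The median of the set lay above that of all measured probes in each of the 6 scalings, but these are not independent. Over all measured probes the median was -0.10 after quantile normalization, -0.72 after median scaling, 0.01 after an intensity-dependent correction, 0.45 after normexp background correction and -0.10 among the authors' deposited values. The median of the set lay above these medians by 0.74, 0.86, 0.72, 0.58 and 0.76 in that order, and by 0.86 in the scaling used here. Of the members at least 2-fold apart, 95.6% were higher in the scaling used here. That share was 82.3% among the deposited values, 81.2% after quantile normalization, 61.6% after median scaling and 87.1% after the intensity-dependent correction. After the intensity-dependent correction 405 members were higher and 60 lower, beside 17.1% and 17.2% of all measured probes. Before any scaling, the signal was greater on the sevoflurane array for 62.7% of measured members and for 34.4% of all measured probes. The unscaled median signals of the measured members were 250.0 (sevoflurane) and 228 (control), against 184 and 309 over all measured probes.

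Differences on these arrays depend on signal level, so the set was also read in 10 equal groups of measured probes ordered by mean level. In the dimmest group, the median was 1.92 for 106 members and 1.72 for the probes outside the set, a gap of 0.20. The gap was 0.49 in the second group and 0.87 in the third. From the fourth to the tenth group it lay between 0.80 and 1.15. The set was thus above the other probes at every level, least so among dim probes, where most probes of any kind were higher. Among dim probes, 86.8% of the members of the first group were at least 2-fold higher, against 77.6% of the other probes there. In the ninth group the shares were 48.3% and 7.18%.

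The brightest group held 196 members, which is 18.2% of the measured members and 12.2% of the probes of that group. Their differences lay close together, with quartiles of 0.74 and 1.33 against -0.43 and 0.61 for the other probes of that group. Of these 196, 111 (56.6%) were at least 2-fold higher and 3 (1.53%) at least 2-fold lower, against 11.4% and 10.5% of the other probes of that group. The quartiles of the members lie on either side of the 2-fold rule, 1 log2 unit, so the count of 111 rests on the scaling. Median scaling lowers every difference by the same amount, and the counts in this group were read in 1 scaling only.

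The other kinds of probe differed in where their median stood. RefSeq mRNA probes had a median of 0.26 (11040 measured), with 28.2% higher and 11.6% lower by at least 2-fold. Probes named MRAK, for non-coding transcripts with a mouse orthologue, had a median of 0.30 (1938 measured) with 35.6% higher and 20.3% lower, and probes named BC, from cDNA clones, had 0.08 (663 measured). Probes of ultraconserved regions named uc. had a higher median than the predicted transcripts, 1.45 (260 measured), but they were dim, and after the intensity-dependent correction their median was 0.15 against 0.73 for the predicted transcripts. RefSeq curated non-coding transcripts (NR_), only 18 measured, had a median of 0.60, below that of the predicted ones, with 44.4% at least 2-fold higher. Of these NR_ transcripts, 88.9% were above 0. After the intensity-dependent correction their median was 0.57, with 38.9% at least 2-fold higher and 11.1% lower. The predicted transcripts then had 37.6% higher and 5.58% lower. Probes with any of the remaining names had a median of 0.99 (1050 measured) with 49.7% at least 2-fold higher, and a median of 0.18 after that correction. In the brightest group the medians were 1.06 for the predicted transcripts, 0.11 for mRNA, -0.34 for MRAK and -0.25 for BC. No test of these differences between kinds can be made over 1 array per condition, and the members are not replicates of it.

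Nearly every member was spotted 3 times per array (1698 of 1702), which gives a technical error for each value. The median SD between spots of a measured member was 0.08 log2 units (sevoflurane) and 0.06 (control), far below the 2-fold rule. Among 945 members with at least 3 usable spots on both arrays, every sevoflurane spot lay above every control spot for 804 and below for 94, and the spots overlapped for 47. Over all 4234 probes with as many spots, the members included, 63.3% lay wholly above and 29.8% wholly below. Over the 3289 of these outside the set the shares were 57.0% and 35.5%. Of the 945 members, all 572 at least 2-fold higher and all 27 at least 2-fold lower had spots that did not overlap. The same held for all 1821 higher and all 544 lower probes of that size among the 4234. Spots of an array share 1 RNA sample, so this error leaves out differences between cultures.

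A small number of transcripts stood far above the rest. A difference of at least 4-fold was found upward for 262 members (24.3%, against 14.1% of all measured probes), and one of at least 16-fold for 28 (2.60%, against 1.31%). The 22 members at least 32-fold higher make up 19.0% of all 116 measured probes at that size, although the set holds 6.71% of measured probes. At the other sizes looked at, from 4-fold to 256-fold, that share was smaller, between 11.6% and 17.8%. At least 256-fold was reached by 4 members (0.372%), against 23 of all measured probes (0.143%). XR_006854 had a signal of 4021 under sevoflurane and 11.5 in the control and differed by 9.40 ± 0.12 (standard error over spots). By its mean level over both arrays it lies in the dimmer part of the measured probes, and it was named after its values were seen. Its difference was 6.62 after normexp, the lowest of the 6 scalings.

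The brighter part of the array holds probes whose mean level over both arrays is at or above the median of measured probes. A member can thus enter it through its signal on 1 array alone, and may be dim on the other. Of the 12 highest members in that part, XR_008202 had the largest difference. Its 3 spots read 3794 to 4216 under sevoflurane and 17.1 to 17.8 in the control, a difference of 8.80 ± 0.05. XR_008345 was bright under sevoflurane, at 18482 (spots 16017 to 21598), and read 114 in the control (spots 107 to 120), a difference of 8.28 ± 0.14. No spot of either member on one array came near the range of its spots on the other.

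XR_006296 read 2963 to 3150 under sevoflurane and 18.9 to 22.3 in the control and differed by 8.17 ± 0.07. XR_007519 had the highest sevoflurane signal of the 12, at 25286 (spots 24126 to 25896), against 244 in the control (spots 243 to 247), and differed by 7.64 ± 0.03. The signal of XR_006486 was 5156 under sevoflurane and 52.7 in the control, a difference of 7.56 ± 0.07. Each of these control signals was above the lowest signal that counts as well above background there, 7.22.

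The remaining 7 of the 12 were XR_008107 (6.77), XR_006876 (6.60), XR_009128 (6.35), XR_009596 (6.05), XR_009079 (6.00), XR_007919 (5.98) and XR_007242 (5.95), as log2 differences. XR_007919 was the only one of these 7 with a control signal above that of XR_009596 (133), at 489 against 15980 under sevoflurane. The spots of XR_007242 and XR_006876 agreed least, with standard errors of 0.51 and 0.45. XR_007242 read 1893 to 3711 under sevoflurane and 44.5 to 115 in the control, and XR_006876 read 3983 to 5163 and 63.6 to 159, so that the ranges of both stayed apart. Over the 6 scalings, the lowest value of any of the 12 was 4.78, for XR_009079 after normexp.

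Few predicted transcripts were lower under sevoflurane. At least 4-fold lower were 3 members (0.279%, against 2.85% of all measured probes). XR_008801 had the largest negative difference, with spots of 39.7 to 47.8 under sevoflurane and 2720 to 2805 in the control, a difference of -5.06 ± 0.08 (between -6.15 and -4.01 over the 6 scalings). It is 1 of the 2 measured probes of the whole array at least 32-fold lower. XR_006067 read 191 to 207 under sevoflurane and 3065 to 3070 in the control and differed by -3.02 ± 0.04. The third, XR_007695, was dimmer, at 34.3 and 483, and differed by -2.87, which became -1.67 after normexp. It was named after its values were seen.

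The other 10 of the 12 lowest members in the brighter part differed by -1.91 to -1.32. XR_006981 was at 601 under sevoflurane and 4349 in the control (-1.91), and XR_009495 at 279 and 1970 (-1.87), from 2 usable spots on the sevoflurane array. XR_007360 differed by -1.85, XR_006158 by -1.79, XR_007501 by -1.75, XR_008772 by -1.73, XR_006833 by -1.61, XR_009070 by -1.54, XR_005433 by -1.52 and XR_008142 by -1.32. The spots of these 10 did not overlap between arrays. Median scaling, which places all probes lower, put the same 10 between -3.00 and -2.42.

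Many more members were detected on the sevoflurane array alone than on the control array alone. Well above background only under sevoflurane were 372 members (21.9%, against 18.2% of all usable probes), and only in the control 12 (0.706%, against 1.61%). The remaining 239 (14.1%) were above background on neither array. For a member seen on 1 array, an approximate lower bound for the fold was taken. The dim side was put at the member's own signal or at the lowest signal well above background on that array (6.88 for sevoflurane and 7.22 for the control), whichever was greater. This floor is not a detection limit, since some members not called read above it, such as XR_008148 at 9.75 in the control. The bound also depends on the scaling, since the floor is scaled with the array. It is given here also after median scaling, and none was computed after normexp. XR_008931 read 1224 under sevoflurane and was not well above background in the control, where it read 2.06. Its bound was 327-fold higher (153-fold after median scaling). XR_008707, at 1008 against 5.25, had a bound of 269-fold higher (126-fold after median scaling), and XR_007038, at 901 against 2.53, of 240-fold higher (112-fold). In the other direction XR_008816, at 8.01 under sevoflurane and 44.1 in the control, had a bound of 2.86-fold lower (6.11-fold after median scaling). The bound of XR_006209 was 1.91-fold lower (4.08-fold) and that of XR_007410 1.65-fold lower (3.53-fold). The lower quartile of the signal over all 1699 usable members was 17.4 under sevoflurane and 3.08 in the control, so dim probes as a whole read higher on the sevoflurane array.

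The 5 brightest transcripts of the set differed by 0.51 to 1.22, a range that holds the median of the members in the brightest group, 1.06. XR_006879 read 43780 to 53517 under sevoflurane and 49652 to 49941 in the control, and no member was saturated. Its difference was 0.89, which turned to -0.03 after quantile normalization. XR_008756 was at 0.51 and XR_007040 at 0.88, and both were negative after median scaling. XR_006359 was at 1.22 (0.37 after quantile normalization). XR_005636 was at 1.02 here but at -0.07 after median scaling. These 5 had more signal than 99.6% of the measured probes, and a call at 2-fold for 2 of them rests on the scaling.

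Calls that did not depend on the scaling were fewer. Among 1072 members with a value in all 6 scalings, 550 (51.3%) were positive in each and 93 (8.68%) negative in each, against 26.1% and 30.3% of all probes with 6 values. At least 2-fold higher in all 6 were 181 members (16.9%, against 9.11% of all probes with 6 values), and at least 2-fold lower in all 6 were 20 (1.87%, against 7.35%). The accession number, which the rule did not use beyond its prefix, was also looked at. In the 5 blocks of accessions from XR_005 to XR_009 the median lay between 1.10 and 1.32, and the share at least 2-fold higher between 56.1% and 65.0%.

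On catalogue probes of the array's maker, with 10 spots each, 4 members were measured. XR_009491 was at 1.80 (signals 49.0 and 27.0), which was 0.53 after the intensity-dependent correction. XR_006686, the brightest of these, read 7530 and 9304 and was at 0.64, XR_006771 was at 0.16 and XR_009039 at -0.09. Only XR_009491 passed the 2-fold rule, and it did so with 10 spots of 44.4 to 54.6 under sevoflurane and 7 usable spots of 25.9 to 28.5 in the control.

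All 8 neural stem cell markers looked up (among them Nes, Sox2 and Hes1) were measured on both arrays, with 2 at least 2-fold higher under sevoflurane, 0 lower and a median of -0.16. Markers of other cells moved with the condition: 4 of 4 red blood cell markers and 3 of 3 fibroblast and pericyte markers with a probe were at least 2-fold higher under sevoflurane, and 4 of 5 microglial and 4 of 6 neuronal markers at least 2-fold lower. Of 4 astrocyte markers 2 were lower and 0 higher (median -1.22), and of 5 oligodendrocyte lineage markers 2 were higher and 1 lower (median 0.98). Red cell markers read 1149 to 2901 under sevoflurane and 108 to 564 in the control, fibroblast and pericyte markers 39.5 to 912 and 9.56 to 660.1, microglial markers 31.7 to 297 and 464 to 3131, and neuronal markers 175 to 11745 and 396 to 37910. Every one of these markers with a probe was well above background on both arrays, and in bulk RNA fewer cells of a type and less RNA per cell cannot be told apart. Their part in the values above was not tested. The day of scanning differed between the 2 arrays and cannot be told apart from the condition.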

How the data were processed

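Labelled RNA of 2 samples, 1 per condition, was hybridised to 1-colour (Cy3) arrays, with labelling by random priming per the labels' protocols. The deposited scanner files give linear intensity per spot. Per the submitters' processing notes the program was Agilent Feature Extraction 11.0.1.1, whose processed signal is corrected for background within each array and not scaled between arrays. The array design refers to the rat build rn4 per the file headers. The deposited value table was read as log2 intensity, since its columns correlated at 0.991 (sevoflurane) and 0.993 (control) with the log2 scanner signals and had medians of 5.61 and 5.60. Its program and centring are not given in the sources used here, and it covers 1698 of the 1702 members.

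Control features and spots flagged as non-uniform or population outliers were left out (of 5134 spots of the set, 106 under sevoflurane and 113 in the control), log2 processed signals were averaged over spots, and each array's 75th percentile, over the probes usable on both arrays, was taken off (signals of 359 for sevoflurane and 692 for the control). A probe was measured when most usable spots were called well above background on both arrays. The rule of size was 2-fold, without a test. Normexp (limma 3.58.1, offset 50) used the median spot signal because the mean signal is not in the files. The intensity-dependent correction was a lowess curve (statsmodels 0.14.6, span 0.3) over measured probes. The scaling steps except normexp were run on simulated arrays built from the control levels, with a constant shift or a level trend. Few probes were changed there, as many up as down. The real arrays differ at many more probes, so the simulation checks the code and cannot tell which scaling suits these data. Members, marker lists and rules were chosen with earlier results of these data known. Named members are the 12 highest and 12 lowest differences in the brighter part of the measured probes with 1 sign in all 6 scalings, the 3 strongest bounds in each direction and the 5 brightest, and others are said to be named later. Planned classes by gene type and pairs with mRNA probes were empty, since 0 accessions matched the gene table. Markers were found through the accessions of mRNA probes, of which 14248 of 15291 matched the table. The number of arrays limits the precision.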

Additional observations from a re-analysis of the deposited data

How the results depend on the processing

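No paired analysis was possible because each condition has 1 array. The counts of members at least 2-fold higher (651) and lower (30) and the median (1.24) were recomputed. They became 371 (34.5%), 86 (7.99%) and 0.64 after quantile normalization and 229 (21.3%), 143 (13.3%) and 0.14 after median scaling. After the intensity-dependent correction they became 405 (37.6%), 60 (5.58%) and 0.73, and in the deposited values 371 (34.6%), 80 (7.46%) and 0.66. Over all measured probes, the shares higher and lower were 33.1% and 11.9% in the scaling used here and 15.6% and 21.6% after quantile normalization. They were 12.6% and 40.8% after median scaling, 17.1% and 17.2% after the intensity-dependent correction, and 15.6% and 21.2% in the deposited values. The median became 1.03 after normexp. Without a filter on dim probes, 1254 were higher (73.8%, against 54.1% of all probes) and the median was 1.87 (1.25 over all probes). In the brighter part of the probes 274 were higher (50.6%, against 14.6% of all probes there). The median there was 1.02 (-0.06 over all probes there). With a rule of 4-fold the counts were 262 and 3 (24.3% and 0.279%, against 14.1% and 2.85% of all measured probes). Settings chosen after seeing the data gave 279 (25.9%), 110 (10.2%) and 0.29 without scaling, beside 15.1% and 36.1% of all measured probes. Others gave a median of 1.12 from spots of the later array rows and 1.13 over probes with a spot SD of at most 0.25. In each of these settings the median of the members stayed positive. The filters change how many members are counted; for the scalings the cause was not tested. Keeping outlier spots, taking the median over spots, scaling on mRNA probes or using spots of the earlier array rows left the counts within 1.5 times and the median within the spot spread. Requiring every spot well above background left 332 members on the sevoflurane array only and 14 on the control array only. The main call gave 372 (21.9%, against 18.2% of all usable probes) and 12 (0.706%, against 1.61%). Of 261 recomputed differences of named members, 144 moved by less than the spot spread and 116 moved by more. The other 1, which had passed 2-fold, changed sign (XR_005636, -0.075 after median scaling). Leaving out the filter on dim probes or keeping the brighter part changes only which probes are counted. Neither setting can move the value of a member, so part of the 144 was fixed in advance. Signal over background limits the dim members, of which 239 were detected on neither array.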
